A study of Mus musculus with 12 samples.

Results

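A set of 10 genes that mark vascular endothelium were followed as a check of endothelial RNA in 12 RNA-seq libraries of mouse satellite cells. The 10 genes, Pecam1, Cdh5, Kdr, Flt1, Tek, Tie1, Emcn, Esam, Cldn5 and Egfl7, were taken by symbol from the 22310 symbols of the count files. All 10 were among the 13540 genes that passed the filter on low counts. They were chosen as known markers of a cell type.

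Satellite cells, the stem cells of skeletal muscle, came from hindlimb muscle of C57BL/6 mice, 3 days after injection of 50 µl of 1.2% barium chloride over about 20 sites. Young wild type (3 to 4 months), old wild type (22 to 28 months), young Hoxa9 knockout (3 to 4 months) and old Hoxa9 knockout (22 to 28 months) each had 3 libraries. All groups were injured, so no uninjured muscle is among them. The sorting gate, the deleted part of Hoxa9 and the number of animals behind each library are not in the labels. The p-values therefore measure the spread among these libraries, which may be technical.

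Endothelial cells line the capillaries that run along muscle fibres, and satellite cells often lie close to them. Vascular endothelial growth factors act on the receptors Kdr and Flt1, and angiopoietins act on Tek, whose relative Tie1 modulates the signal. Cdh5, Cldn5, Esam and Pecam1 join endothelial cells to each other, Emcn is a sialomucin of their surface, and Egfl7 is a secreted protein. Several of these genes are not exclusive to endothelium: Pecam1 and Esam are found on platelets and Tek in some blood-forming cells. Pecam1 protein, known as CD31, is a common exclusion marker when satellite cells are sorted.

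Read depth ran from 4193433 to 20337015 counts in genes per library, so 3 reads corresponded to between 0.146 and 0.872 CPM (CPM, reads of a gene divided by all gene reads, per 1e+06, after scaling between libraries). Hoxa9 itself ranged over 7.96 to 22.5 CPM in wild type (6 libraries) and over 4.55 to 7.21 CPM in knockout (6 libraries). Several features separate libraries before any endothelial gene is considered. Ttr, a choroid plexus and liver transcript, lay at 70.7 to 4260 CPM in wild type and at 0 in every knockout library. Old knockout replicates 2 and 3 carried the Y-linked Ddx3y at 125 and 151 CPM, against 5.11 CPM or less elsewhere. The level of a gene relative to its mean over libraries was correlated with its GC content, positively in each wild-type and negatively in each knockout library (Spearman's rho 0.226 to 0.471 in wild type and -0.525 to -0.125 in knockout, across genes, which are not independent). Reads outside genes were most frequent in old wild-type replicate 2 (57.1%) and old knockout replicate 3 (70.8%).

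Promoters of 7 of the 10 genes were found in the RefSeq table of build GRCm38.p6, with Pecam1, Cdh5 and Esam not matched. The pair shown here are the angiopoietin receptor Tek, the most abundant of the 10, and its relative Tie1, which had no read in 4 libraries. Each runs from 250 bases before the start site to 50 after it, 5′ to 3′ on the gene's strand, with capitals at GGAA or its reverse complement TTCC, the core that ETS factors bind.
Tek, chr4:94739039-94739338, plus strand: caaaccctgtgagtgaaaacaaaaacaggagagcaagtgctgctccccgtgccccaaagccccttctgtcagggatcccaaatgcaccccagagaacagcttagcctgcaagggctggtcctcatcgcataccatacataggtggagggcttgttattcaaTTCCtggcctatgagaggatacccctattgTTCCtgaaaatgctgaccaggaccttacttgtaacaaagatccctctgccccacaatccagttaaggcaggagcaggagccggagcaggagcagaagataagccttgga
Tie1, chr4:118489800-118490099, minus strand: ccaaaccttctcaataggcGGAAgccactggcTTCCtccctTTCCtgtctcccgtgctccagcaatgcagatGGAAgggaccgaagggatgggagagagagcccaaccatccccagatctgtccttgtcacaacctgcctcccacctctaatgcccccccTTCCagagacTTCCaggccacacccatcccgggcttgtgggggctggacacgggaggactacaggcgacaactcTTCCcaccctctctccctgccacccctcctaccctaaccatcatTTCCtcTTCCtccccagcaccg
The Tek window holds 2 such cores and the Tie1 window 9. At least 2 cores were found in 84.6% of 32851 mouse promoters of the same length, and at least 9 in 1.6%. The longer CAGGAAGT, searched on both strands, was in neither window and in 3.3% of all promoters, while AGATAA, which holds the core that the factor Gata2 binds, was in the Tek window and in 11.2% of all. Among the other members, the count of GGAA cores ran from 0 at Cldn5 to 6 at Emcn. These matches describe the letters of the windows only.

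Tek had the highest level per kilobase of the 10 genes in every library. Per kilobase of exons it averaged 5.89 ± 1.99 CPM per kb (SD, n = 12 libraries). Esam followed at 2.70 ± 1.04 CPM per kb. Tek was above Esam, and Esam above Cdh5, in 12 of 12 libraries. The other 8 genes averaged under 1 CPM per kb, in the order Cdh5 (0.957), Cldn5 (0.676), Egfl7 (0.494), Flt1 (0.330), Pecam1 (0.299), Tie1 (0.170), Emcn (0.157) and Kdr (0.127). Some neighbours in the lower part of this order were not separated: Cdh5 was above Cldn5 in 6 of 12 libraries, Flt1 above Pecam1 in 6, Tie1 above Emcn in 4 and Emcn above Kdr in 8. Others kept their order in most libraries, with Cldn5 above Egfl7 in 10, Egfl7 above Flt1 in 10 and Pecam1 above Tie1 in 11. For scale, the satellite cell transcription factor Pax7 averaged 43.5 CPM per kb. Among 13280 tested genes with a known length, Tek ranked above 52.3% and Esam above 34.8%. Kdr ranked above 1.2%, Emcn above 2.1%, Tie1 above 2.4% and Pecam1 above 6.0%.

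**Figure D1:**
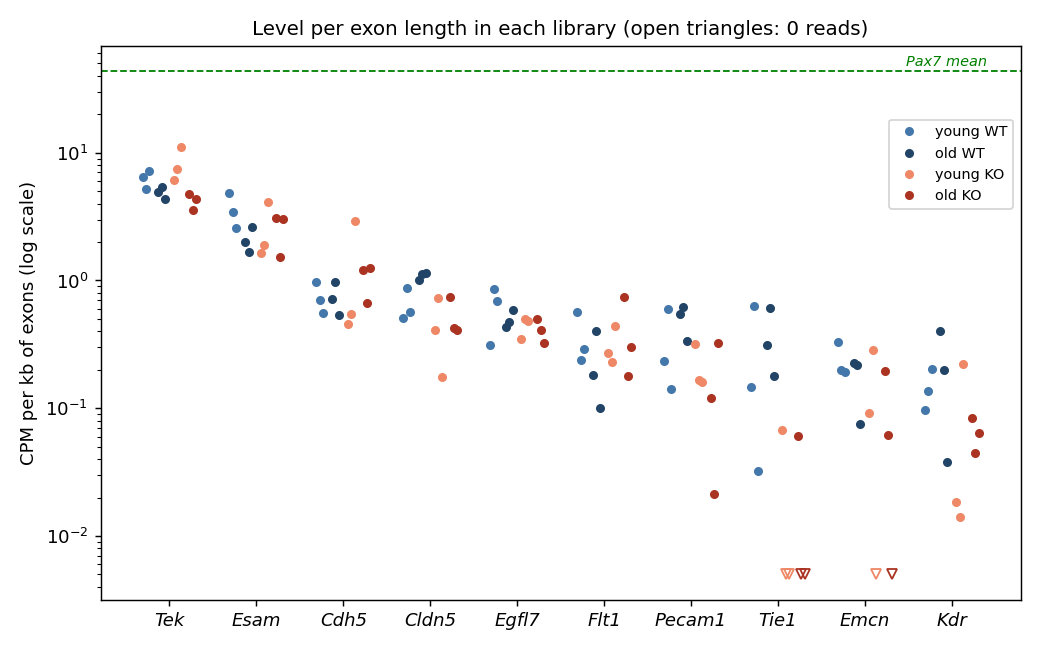
Level of each endothelial marker in CPM per kb of exons (log scale) in each of the 12 libraries, colored by group, with genes ordered by their mean. Tek lies between 3.58 and 11 CPM per kb, below the Pax7 mean of 43.5 (dashed line), and open triangles mark the 4 libraries without a Tie1 read and the 2 without an Emcn read.

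The 10 genes together summed to between 29.4 and 86.7 CPM per library, of which Tek made up 42.9% to 68.2%. In wild type the sum averaged 57.0 ± 4.74 CPM in young and 46.4 ± 7.02 CPM in old libraries (SD, n = 3 each). In knockout it averaged 60.6 ± 22.9 CPM in young and 41.4 ± 11.4 CPM in old libraries (SD, n = 3 each). Old wild type lay below young wild type without overlap (39.1 to 53.1 against 54.0 to 62.5 CPM). The groups overlapped between ages in knockout and between genotypes in old and in young mice. In wild type the separation by age was lost in sums over part of the 10 genes, cut after the values were seen. Without Tek, old libraries summed to 18.7 to 27.4 and young to 20.8 to 32.3 CPM. Without Tek and Esam the means were 17.3 ± 5.85 (old) and 17.2 ± 3.25 CPM (young), with SD over 3 libraries each. After also removing Cdh5 and Flt1 the means were 11.1 ± 3.13 (old) and 9.11 ± 3.73 CPM (young). Tek, Esam, Cdh5 and Flt1 each had a negative fold change with age in wild type, so the lost separation is in part a product of the cuts. In these bulk libraries the number of endothelial cells, the RNA per cell and RNA of these genes from other cell types cannot be told apart. Those other cell types include the satellite cells themselves, also for Tek, the largest single part of the sum. Some lists of genes used as markers of other cell types were also lower in old than in young wild type without overlap. The 12 satellite cell genes summed to 7660 to 8030 CPM in old and 8230 to 9550 CPM in young libraries. The 12 pericyte and smooth muscle genes summed to 3030 to 3120 against 3850 to 4730 CPM, and the 12 fibroblast genes to 5870 to 7010 against 10400 to 12500 CPM. Over the 12 libraries the former sum averaged 3620 CPM, with Notch3 at 1490 and Acta2 at 1170 CPM. The fibroblast sum averaged 8960 CPM, with Col1a2 at 3900 and Col3a1 at 3280 CPM. Other listed genes were low, among them Higd1b (3.7 CPM), Pdgfra (5.16 CPM) and Pi16 (0.832 CPM). Which cells these RNAs came from was not tested. A list of 25 further endothelial genes was lower too (173 to 232 against 243 to 283 CPM). The 12 growth factor and angiopoietin pathway genes were higher in old libraries without overlap (386 to 461 against 307 to 359 CPM). So were the 12 macrophage genes (142 to 160 against 26.8 to 53.1 CPM). A lower sum with age was thus not seen in the endothelial genes alone, nor in every list.

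Among the receptors, Tek was measured with the most reads, 70 to 622 per library. It stood at 30.2, 24.5 and 33.8 CPM in young wild type. In old wild type the values were 23.2, 25.6 and 20.4 CPM. In young knockout it reached 28.8, 34.9 and 51.9 CPM, and in old knockout 22.4, 16.9 and 20.3 CPM. The young knockout libraries were thus all above the old knockout libraries, with replicate 3 the highest of all 12, and the old and young wild-type libraries overlapped.

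Tie1 was close to the detection limit. Young wild type held 0.728, 3.09 and 0.160 CPM, and old wild type 1.54, 2.98 and 0.885 CPM. Young knockout held 0.332, 0 and 0 CPM, and old knockout 0.300, 0 and 0 CPM. In reads these were 37 and 68 in the young and old wild-type groups, 4 in young knockout and 2 in old knockout. At a count of 0 the upper 95% counting limit was 0.474 and 0.916 CPM in young knockout replicates 2 and 3. It was 0.247 and 1.07 CPM in old knockout replicates 2 and 3. Old knockout lay below every old wild-type library, while young knockout replicate 1 lay above young wild-type replicate 3.

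Kdr, the main signalling receptor for Vegfa, stood at 0.873, 1.23 and 1.84 CPM in young wild type and at 3.63, 1.79 and 0.341 CPM in old wild type. In young knockout it was 0.166, 0.128 and 1.99 CPM, and in old knockout 0.751, 0.402 and 0.581 CPM. The groups overlapped at both ages. Flt1, the receptor that also acts as a decoy for Vegfa, ranged from 1.36 CPM in old wild-type replicate 3 to 10.1 CPM in old knockout replicate 1, and the 4 groups overlapped throughout.

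Among the junction genes, Pecam1 stood at 1.46, 3.70 and 0.882 CPM in young wild type and at 3.38, 3.88 and 2.11 CPM in old wild type. It was 1.99, 1.03 and 0.994 CPM in young knockout and 0.751, 0.134 and 2.03 CPM in old knockout. The old groups did not overlap, although the highest old knockout library (2.03 CPM, 7 reads) was close to the lowest old wild-type library (2.11 CPM, 31 reads). Cdh5, the cadherin of endothelial adherens junctions, was within 1.91 to 5.23 CPM in 11 libraries and at 12.2 CPM in young knockout replicate 3. Cldn5, a tight junction claudin, lay at 0.728 to 1.23 CPM in young wild type, 1.42 to 1.63 CPM in old wild type, 0.248 to 1.03 CPM in young knockout and 0.581 to 1.05 CPM in old knockout. For Cldn5 the old wild-type libraries were above every other library, on 16 to 24 reads each. Esam was highest in young wild-type replicate 1 (13.8 CPM) and young knockout replicate 3 (11.7 CPM), and lay at 4.42 to 9.87 CPM in the other 10 libraries.

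Emcn ranged from 0 in young knockout replicate 3 and old knockout replicate 3 to 1.80 CPM in young wild-type replicate 1. The upper 95% counting limits of these counts of 0 were 0.916 and 1.07 CPM. They lie above the 0.335 CPM of old knockout replicate 2, which had 5 reads. Egfl7 lay at 1.12 to 3.09 CPM over the 12 libraries, with overlap between all groups. Exons of Egfl7 overlap those of other annotated genes in GENCODE M21, the microRNA genes Mir126a and Mir126b among them, and no such overlap was found for the other 9 genes. The sources used here do not say how reads in such overlaps were counted.

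**Figure D2:**
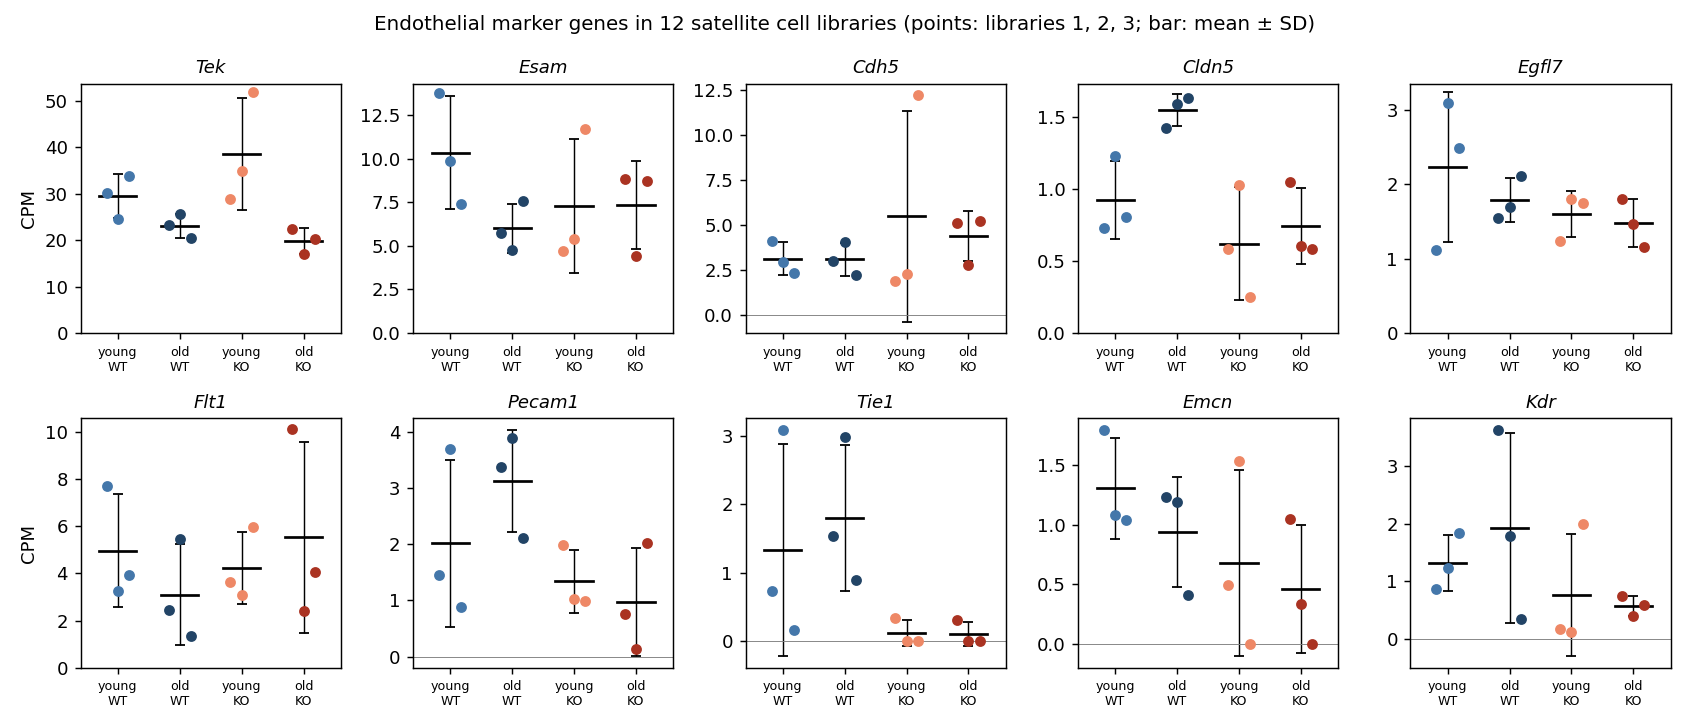
CPM of each endothelial marker in the 3 libraries of each group (points), with group mean and SD (bars); each panel has its own axis. Tek is lower in all 3 old than in all 3 young knockout libraries, Tie1 is at 0 in 4 of the 6 knockout libraries, and Cdh5 is set apart by 1 young knockout library at 12.2 CPM.

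The comparison of old with young wild-type libraries asks how ageing alters the cells after injury. By edgeR's quasi-likelihood test with a threshold of 0.05 on the adjusted p, 0 of the 10 genes passed, against 1.06% of all 13540 genes tested. None of the 10 had an unadjusted p under 0.05 (14.2% of all genes did), and DESeq2 called 0. The median log2 fold change was -0.16 over the 10 genes and 0.01 over all genes tested. Esam had the most negative value, -0.78 ± 0.37 (SE; 95% interval -1.57 to 0.01; adjusted p = 0.360). Tek had -0.36 ± 0.21 (95% interval -0.80 to 0.09; adjusted p = 0.472). Cldn5 was the one gene whose groups did not overlap, with 0.79 ± 0.49 (adjusted p = 0.507); 26.8% of all genes had groups without overlap, and 13.1% had every old above every young wild-type library. The remaining values were Pecam1 0.70, Tie1 0.57, Kdr 0.56, Cdh5 -0.03, Egfl7 -0.28, Emcn -0.51 and Flt1 -0.74, each with an interval that includes 0. The sign of Cdh5 was positive without young replicate 1 (0.25), and that of Kdr negative without old replicate 1 (-0.35). In the same comparison all 12 macrophage markers had positive values, though 0 of 12 passed the test, with a summed level of 26.8 to 53.1 CPM in young and 142 to 160 CPM in old libraries. Some macrophages carry Pecam1 and Flt1, and the part of these cells in the values of the 10 genes was not tested.

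In old mice, knockout against wild type again gave 0 of 10 genes past the threshold in edgeR's quasi-likelihood test, against 16.7% of all genes (7.21% lower in knockout). Unadjusted p-values were under 0.05 for 2 of the 10 (32.9% of all genes), and DESeq2 called 1, Tie1. Tie1 had a log2 fold change of -4.20 ± 1.36 (95% interval -7.13 to -1.27), with an adjusted p of 0.0502 that lies at the threshold. Under the 6 other settings that called it, its adjusted p was 0.0169 to 0.0494, and with offsets for GC content it was 0.0874. In pooled reads the knockout level was 4.82% of the wild-type level, with a 95% counting interval of 0.572% to 18.1% that leaves out the spread between libraries. Pecam1 had -2.05 ± 0.77 (95% interval -3.71 to -0.39; adjusted p = 0.0826), and -1.26 without old knockout replicate 2, where it had 2 reads. Scaled by library size alone, Pecam1 passed (-2.34, adjusted p = 0.0388). In the same comparison all 12 macrophage markers had negative values (median -2.31, 2 of 12 passed), with sums of 142 to 160 CPM in old wild type and 18.1 to 91.5 CPM in old knockout, and their part in the Pecam1 value was not tested. Kdr had -1.79 ± 0.94 (adjusted p = 0.205) and Cldn5 -1.04 ± 0.53 (adjusted p = 0.185). For Tie1, Pecam1 and Cldn5 every knockout library was below every wild-type library, as was the case for 20.4% of all genes (42.0% in either direction). Tek had -0.22 ± 0.21 (95% interval -0.68 to 0.23), Esam 0.24 ± 0.38, Cdh5 0.46 ± 0.60 and Flt1 0.84 ± 0.59. Emcn (-0.91) and Egfl7 (-0.24) completed the list, whose median of -0.57 stands beside -0.01 over all genes. The direction of Esam was negative when counts were scaled by library size alone (-0.02), and Egfl7 was positive with GC offsets (0.07). Without the pair of libraries with Y-linked reads, which leaves 1 old knockout library, Tie1 was at -2.51 (adjusted p = 0.469) and Pecam1 at -2.03 (adjusted p = 0.282).

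In young mice, 0 of 10 genes passed in edgeR's quasi-likelihood test, where 20.9% of all genes did. Of the 10, 1 had an unadjusted p under 0.05 (35.7% of all genes), and DESeq2 called 0. The groups overlapped for all 10, whereas they did not for 35.7% of all genes. Tie1 had the most negative value, -2.84 ± 1.25 (95% interval -5.54 to -0.15; adjusted p = 0.121), and -1.54 without young wild-type replicate 2, which held 20 of the 37 wild-type reads. Its pooled level in knockout was 17.9% of wild type (95% counting interval 4.64% to 49.9%). Kdr had -1.18 ± 0.98 (adjusted p = 0.416), and -2.99 (adjusted p = 0.0512) without young knockout replicate 3. Cdh5 had 0.68 ± 0.60, which was -0.55 without that same library. Tek had 0.37 ± 0.21 (95% interval -0.08 to 0.81; adjusted p = 0.228). Emcn (-0.85), Esam (-0.57), Egfl7 (-0.46), Pecam1 (-0.45), Cldn5 (-0.43) and Flt1 (-0.30) had negative values with intervals that include 0. Cldn5 was positive with GC offsets (0.08), Pecam1 without young wild-type replicate 2 (0.23) and Flt1 without young wild-type replicate 1 (0.19). The median over the 10 was -0.45, beside -0.02 over all genes.

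**Figure D3:**
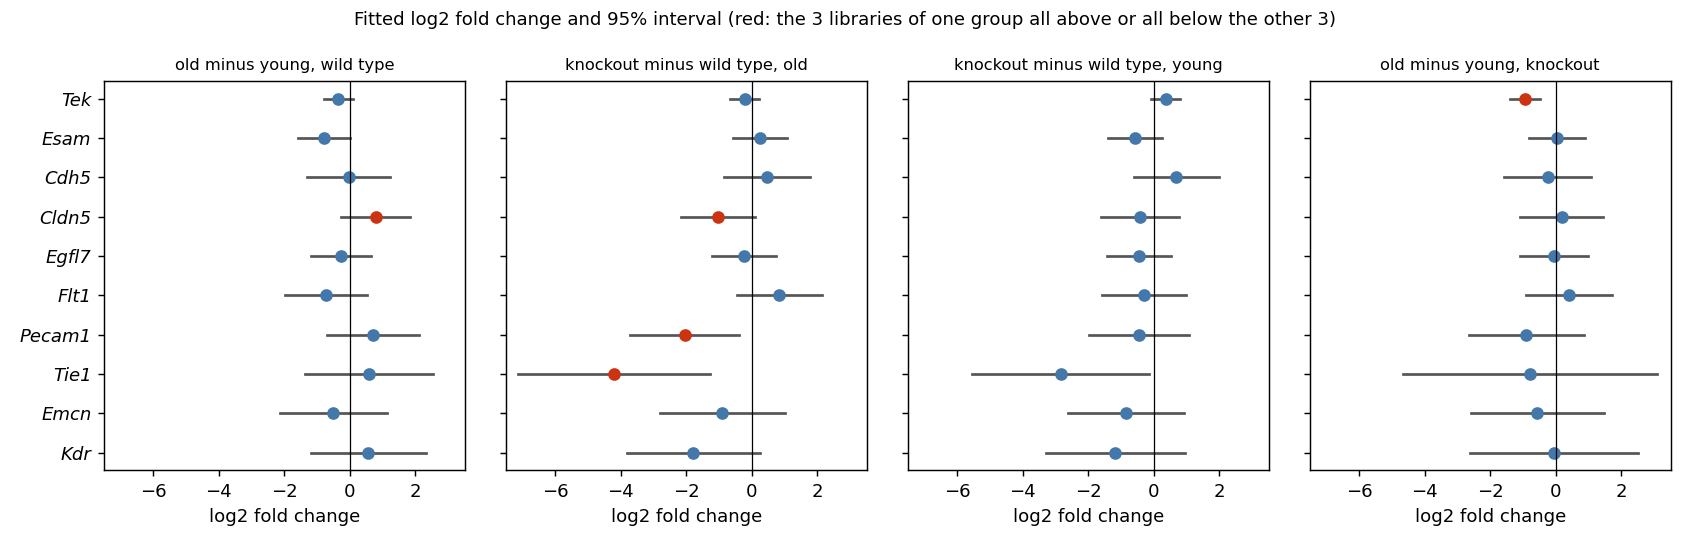
Fitted log2 fold change (points) and 95% interval (lines) of the 10 genes in 4 comparisons; red points mark genes whose groups of 3 libraries do not overlap. None passed an adjusted p of 0.05; Tie1 in old mice (-4.20) and Tek with age in knockout (-0.95) have intervals that do not include 0, as have Pecam1 in old mice (-2.05) and Tie1 in young mice (-2.84).

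Ageing in knockout gave 0 of 10 genes past the threshold in edgeR's quasi-likelihood test, against 0.0148% of all genes (2 of 13540). Of the 10, 1 had an unadjusted p under 0.05 (9.7% of all genes). That gene was Tek, whose mean of 19.9 ± 2.79 CPM in old knockout compared with 38.6 ± 12 CPM in young knockout (SD, n = 3). Its log2 fold change was -0.95 ± 0.22 (95% interval -1.41 to -0.49) with an adjusted p of 0.186. Every old library was below every young one, which held for 5.22% of all genes (11.6% in either direction). DESeq2 gave Tek an adjusted p of 0.00946 and the fit with no filter on low counts 0.0322; the other alternatives gave 0.0735 to 1. Without young knockout replicate 3 the fold change was -0.71 (adjusted p = 0.108). The other 9 genes lay between -0.90 and 0.41, and each of them except Pecam1 changed sign under at least 1 alternative. The test of whether the age difference itself differed between genotypes gave 0 of 10 (0.0148% of all genes; 0 unadjusted, 0 by DESeq2), with Tek at -0.59 ± 0.30 (adjusted p = 0.554). Ageing in wild type and knockout in old mice share the old wild-type libraries, and ageing in knockout shares its libraries with both knockout comparisons.

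Sums over part of the 10 genes gave different pictures of the genotypes. Without Tek, the other 9 summed to 18.7 to 32.3 CPM in wild type and 12.6 to 34.8 CPM in knockout, with overlap. Without Tek and Esam the sums were 11.1 to 22.7 and 8.16 to 23.1 CPM, again with overlap. The 6 genes left after also removing Cdh5 and Flt1 had sums of 6.70 to 13.4 CPM over the 6 libraries of wild type, against 2.94 to 5.71 CPM over the 6 of knockout, without overlap. These cuts were made after the values were seen and are given without a test. The removed genes include every member with a positive knockout fold change, Esam, Cdh5 and Flt1 in old mice and Cdh5 and Tek in young mice. The separation of the 6 genes left is therefore in part a product of the cut. The 12 choroid plexus genes, in the same libraries, summed to 153 to 6160 CPM in wild type and 28.9 to 73.8 CPM in knockout. The libraries with the highest choroid plexus sums, young wild-type replicate 2 (6160 CPM) and old wild-type replicate 2 (3550 CPM), also had the highest sums of the 6 genes (13.4 and 13.1 CPM). Old wild-type replicate 3 had the lowest choroid plexus sum in wild type (153 CPM) and 7.49 CPM of the 6 genes. Young wild-type replicates 3 and 1, with choroid plexus sums of 3040 and 1630 CPM, were lower, at 7.22 and 6.70 CPM. Old wild-type replicate 1 had 2640 CPM of the choroid plexus list and 12.7 CPM of the 6 genes. Erythroid genes, a sign of blood in the preparation, summed to 104 to 263 CPM in wild type, 39.0 to 73.4 CPM in young knockout and 48.4 to 221 CPM in old knockout. Platelet genes summed to 15.6 to 27.3 CPM in wild type and 9.63 to 48.8 CPM in knockout, with old knockout replicate 3 the highest. Transcript GC content was 60.5% for Cldn5, 57.6% for Tie1, 57.1% for Egfl7, 53.7% for Esam, 52.2% for Cdh5, 50.5% for Flt1, 50.2% for Pecam1, 49.4% for Kdr, 47.1% for Tek and 40.7% for Emcn. The part of choroid plexus, blood or GC content in the genotype values was not tested, beyond the fits with GC offsets given above.

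**Figure D4:**
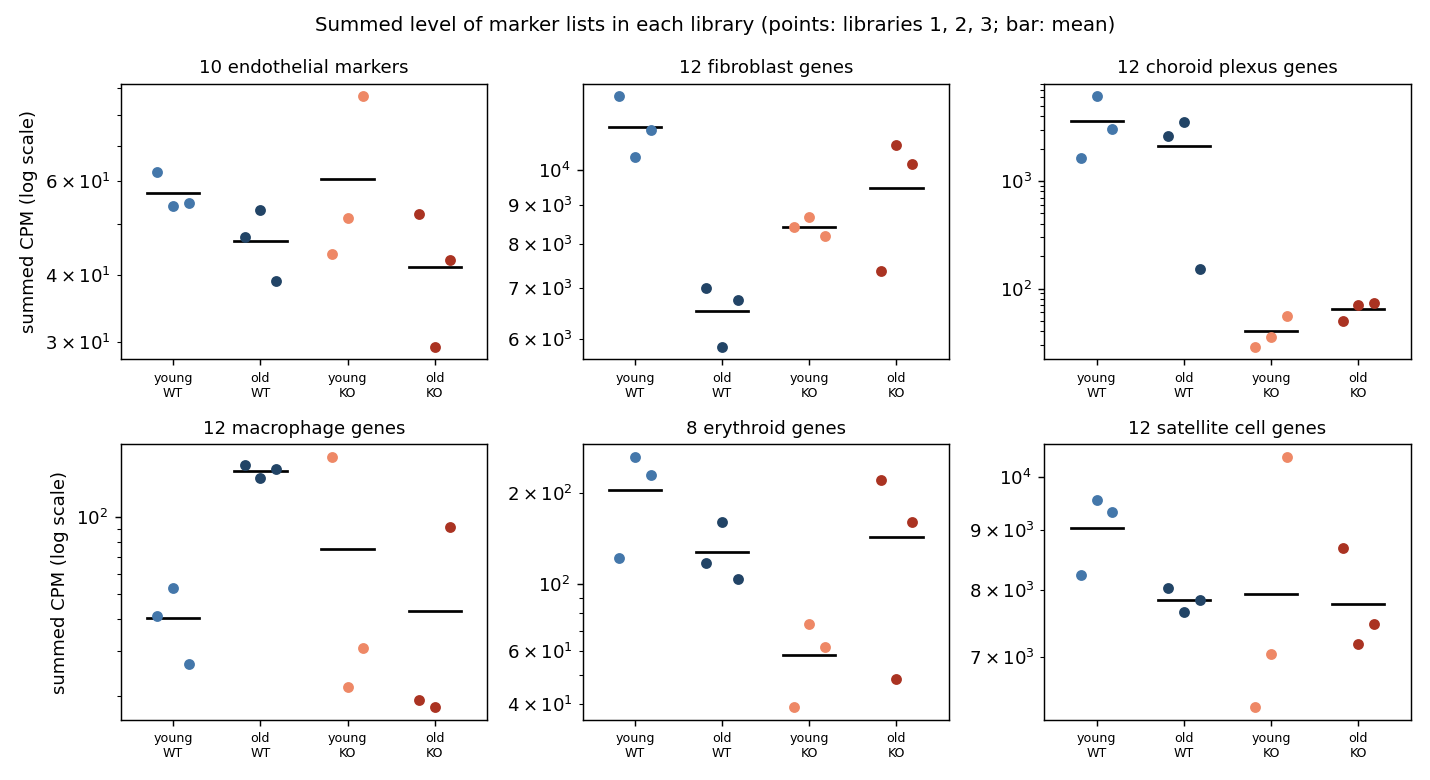
Summed CPM (log scale) of 6 marker lists in each library (points) with group means (bars). The 10 endothelial markers overlap between genotypes, and the choroid plexus list does not (153 CPM or more in wild type, 73.8 or less in knockout). The macrophage list is at 142 to 160 CPM in old wild type and highest, at 172 CPM, in young knockout replicate 1.

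The other endothelial genes covered a wide range of levels. Of 25 further endothelial genes 19 passed the filter. Ramp2, a co-receptor for adrenomedullin, S1pr1, a sphingosine phosphate receptor, and Tspan7 were the most abundant per kilobase (13.9, 8.35 and 5.45 CPM per kb). Plvap, Ecscr, Rasip1, Clec14a and Mmrn2 passed the filter at 0.346 to 0.994 CPM per kb. Robo4, Icam2, Nos3 (endothelial nitric oxide synthase), Eltd1, Myct1 and Gpihbp1 did not pass the filter and averaged 0.363 CPM or less. Among 8 endothelial transcription factors only Lmo2 and Fli1, which blood cells also express, passed it, and Erg, Sox7, Sox17, Sox18, Tal1 and Hhex averaged 0.428 CPM or less. Lmo2 averaged 4.98 CPM per kb and Fli1 0.547 CPM per kb. Vwf, which carries clotting factor VIII and is made by endothelium and megakaryocytes, lay at 4.88 to 11 CPM. Old wild-type replicate 2 held the highest value of Vwf, Plvap (5.66 CPM), Mmrn2, Robo4, Icam2, Nos3, Eltd1 and Myct1. It was also highest for Erg, Sox7, Sox17, Sox18 and Hhex, but not for Gpihbp1, Tal1, Ecscr, Rasip1 or Clec14a. In that library 20282 genes had reads, against 14795 to 16711 in the other libraries. Its part in the values of these low genes was not tested.

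In edgeR's quasi-likelihood test 1 of the 19 tested endothelial genes fell with age in wild type, Ramp2, beside 1.06% of all genes called in either direction. Its mean was 65.5 ± 5.42 CPM in young wild type, against 37.2 ± 4.79 CPM in the old libraries (SD, n = 3 each), a difference of -0.82 ± 0.15 on the log2 scale (adjusted p = 0.0253). In old mice 2 of 19 were lower in knockout, beside 7.21% of all genes: Podxl, podocalyxin (-0.90 ± 0.26, adjusted p = 0.0343), and Plvap, a protein of fenestrated capillaries (-2.25 ± 0.71, adjusted p = 0.0459), which went from 3.46 ± 2.07 to 0.552 ± 0.609 CPM. Podxl and Plvap missed the threshold with GC offsets (adjusted p = 0.0866 and 0.109), and without the pair of libraries with most reads outside genes (0.181 and 0.304), where Plvap stood at -1.38. The same held without the pair with Y-linked reads (0.375 and 0.190), where Podxl stood at -0.53, and in the fit of only the groups compared (0.0616 and 0.0505). Leaving out single libraries also ended these calls, that of Podxl without old wild-type replicate 1 or 2 or old knockout replicate 2 or 3 (adjusted p = 0.0666 to 0.127), and that of Plvap without old wild-type replicate 1 or 2 or old knockout replicate 1 or 3 (0.0940 to 0.159). Ramp2 with age kept a value of -0.71 to -0.88 without any 1 library but then missed the threshold (adjusted p = 0.0608 to 0.147), as it did with scaling by library size alone (0.0714) and without the pair with most reads outside genes (0.150). Capillaries of the choroid plexus are fenestrated, and the part of that tissue in the Plvap value was not tested. In young mice Eng, endoglin (-0.98 ± 0.22, adjusted p = 0.00856), and Ramp2 (-0.63 ± 0.15, adjusted p = 0.0112) were lower in knockout and 0 of 19 higher, beside 20.9% of all genes called in either direction. With GC offsets neither passed: Eng was at -0.57 (adjusted p = 0.134) and Ramp2 at -0.23 (adjusted p = 0.441). Ramp2 also missed the threshold in the fit of only the groups compared (0.0684). With age in knockout and for the interaction 0 of 19 passed, beside 0.0148% of all genes in each.

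Several ligands and co-receptors were measured at higher levels per kilobase than Kdr and Flt1. Of 12 genes of the growth factor and angiopoietin pathway 10 passed the filter. Nrp1, a co-receptor for Vegfa, averaged 23.6 CPM per kb, Vegfa 13.6, Vegfc 11.4 and Vegfb 6.77 CPM per kb. Angpt1, the activating ligand of Tek, averaged 2.88 CPM per kb and Angpt2, its context-dependent antagonist, 1.82 CPM per kb. In edgeR's quasi-likelihood test Vegfb was lower in knockout in old mice (-0.94 ± 0.23, adjusted p = 0.0168), beside 16.7% of all genes called in either direction. In young mice Vegfb was lower in knockout (-0.93 ± 0.24, adjusted p = 0.0141) and Vegfc higher (1.01 ± 0.23, adjusted p = 0.00787), beside 20.9% of all genes called in either direction. With GC offsets these calls were lost, with Vegfb at -0.57 (adjusted p = 0.146) in old and -0.39 (adjusted p = 0.350) in young mice, and Vegfc at 0.81 (adjusted p = 0.0593). Vegfb also missed the threshold in old mice without old wild-type replicate 3 (0.0687) or old knockout replicate 3 (0.0761), without the Y-linked pair (0.200) and without the pair with most reads outside genes (0.126), and in young mice without young wild-type replicate 2 (0.0562). Transcript GC content was 62.6% for Vegfb and 44.9% for Vegfc. With age 0 of 10 passed in either genotype, beside 1.06% of all genes in wild type and 0.0148% in knockout. Ptprb, a phosphatase that dampens Tek in endothelium, averaged 0.0879 CPM per kb. None of 9 tested arterial, venous and tip cell genes passed in any comparison, where between 0.0148% and 20.9% of all genes did. Ephb4 (19.2 CPM per kb) and Efnb2 (7.81 CPM per kb), a receptor and ligand pair, had the highest CPM. Beside the same shares, none of 4 tested lymphatic genes passed either. Pdpn was at 167 CPM per kb, Prox1 at 6.90 and Lyve1, the lymphatic and macrophage marker, at 0.470.

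Young knockout replicate 3 stood apart for several of these genes. Besides the highest Tek and Cdh5 of all libraries it held Slco2a1, a prostaglandin transporter chosen here after its values were seen, at 119 CPM, against 1.41 to 11.6 CPM in the other 11. Pdpn (619 CPM) and Vegfa (114 CPM) were also highest there. The library had the fewest gene reads of all (4193433) and the lowest share of reads outside genes (32.2%).

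The 10 genes did not vary as one block. Over the 12 libraries the 45 pairwise Pearson correlations of log2 CPM ran from -0.53 to 0.76, with a median of 0.14, and after removal of group means from -0.59 to 0.82, with a median of 0.07. Pecam1 and Tie1 were the closest pair across libraries (0.76), and Cdh5 and Tek after group means were removed (0.82). The genes whose log2 CPM followed the mean of the 10 most closely were Fuz (r = 0.95), Iqcd (0.94), Fxyd1 (0.92), Dcaf12l1 (0.92), Zfp467 (0.92), Slc25a23 (0.91), Id3 (0.90), Slc6a12 (0.90), Id1 (0.90) and Gdf9 (0.90), over 12 libraries. After removal of group means they were Cadm2 (r = 0.96), Nctc1 (0.95), Zfp467 (0.95), Fuz (0.94), Klhl3 (0.94), Ppp1r3c (0.94), Ppara (0.94), BC031353 (0.94), Coq10a (0.94) and Ppm1k (0.93). None of these genes is on any of the marker lists, which hold only 150 of the 22310 symbols, so their absence there says little. These values share library, depth and GC trend, and are given as a description.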

How the data were processed

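Total RNA of satellite cells was sequenced after ribosomal RNA removal with a stranded kit, per the labels' protocols. The deposited values are raw read counts, 1 file per library, by gene symbol. TopHat, HTSeq and DESeq2 on mm9 are named in the submitters' processing notes, without versions; the sources used here do not say whether the authors counted by strand. The 5 summary lines that name no gene were left out: reads outside genes made up 32.2% to 70.8% and ambiguous reads 0.433% to 1.37% of uniquely aligned reads.

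Genes were filtered with filterByExpr (13540 of 22310 kept), scaled by TMM (trimmed mean of M values) and tested in edgeR 4.0.16 (R 4.3.3; robust quasi-likelihood, 1 mean per group over 12 libraries). Benjamini-Hochberg adjustment ran over the 13540 genes. CPM uses the same factors; counting intervals (95%) and floors of 3 counts cover counting error only. SE is the fold change over the square root of F. Exon length and GC content come from GENCODE M21 (92.4% of symbols matched), another build than mm9. Code was tested on simulated data. Alternatives were DESeq2 1.42.0, other scaling, no filter, fits of the groups compared, a replicate block, GC offsets, and fits without single or doubted libraries. No library repeated another (Spearman correlation 0.949 to 0.990 within groups). All 10 genes, every called gene of the related lists (up to 6) and the 10 genes most like the 10 were named by rule, and the members and lists were chosen with earlier results of these data known.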

Additional observations from a re-analysis of the deposited data

How the results depend on the processing

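Members passing the threshold numbered 0 in age in wild type, knockout in young mice and the interaction under every alternative run. For knockout in old mice the count was 2 with scaling by library size alone (Tie1 and Pecam1), and 1, Tie1, with RLE factors, no filter on low counts, a fit of only the groups compared, the replicate block and DESeq2. For age in knockout it was 1, Tek, with no filter and with DESeq2. Leaving out any 1 library gave 0 in all 5 comparisons. Replicate numbers did not pair the libraries (18 correlations of deviations, -0.26 to 0.23), so the replicate block shares only a number; it gave Tie1 in old mice -4.58 (adjusted p = 0.0391) and Podxl there -0.90 (adjusted p = 0.0572).

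The counts over all genes moved more. Age in wild type called 83 genes with library size alone, 913 in the fit of only the groups compared, 79 with the replicate block, 460 with DESeq2, 2 without the pair of libraries with most reads outside genes, and 6 to 73 without any 1 library. Knockout in old mice called 943 with GC offsets, 121 without the pair with Y-linked reads, 3 without the pair with most reads outside genes, and 779 to 1695 without any 1 library. Knockout in young mice called 1536 in the fit of only the groups compared, 784 with GC offsets and 1479 to 3140 without any 1 library. Age in knockout called 38 with no filter, 136 with DESeq2, 15 without the Y-linked pair, 1 without the pair with most reads outside genes, 0 with the replicate block, GC offsets or only the groups compared, and 0 to 102 without any 1 library. The interaction called 4 with library size alone, 6 with no filter, 60 with DESeq2, 0 without either pair, and 0 to 116 without any 1 library.

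Some fold changes changed sign, among them those of Cdh5 and Flt1, which had 440 and 553 reads. For age in wild type Cdh5 was 0.06 with library size alone, and leaving out libraries gave Cdh5 -0.26 to 0.25, Egfl7 -0.63 to 0.00, Tie1 -0.01 to 1.89 and Kdr -0.35 to 1.06, with Cdh5 at 0.15 without old replicate 3. For knockout in old mice Esam was -0.02 with library size alone and -0.02 without the pair with most reads outside genes, Egfl7 was 0.07 with GC offsets, and without the Y-linked pair Emcn was 0.17 and Egfl7 0.03. For knockout in young mice Cldn5 was 0.08 with GC offsets, and leaving out libraries gave Flt1 -0.55 to 0.19, Pecam1 -0.90 to 0.23 and Cdh5 -0.55 to 1.12. For age in knockout Esam was -0.06 with library size alone, -0.01 with RLE factors, 0.00 with no filter, -0.01 with DESeq2 and -0.12 without the pair with most reads outside genes, where Egfl7 was 0.04. Kdr was 0.07 with the replicate block, and without the Y-linked pair Kdr was 0.32, Tie1 0.87, Emcn 0.46 and Egfl7 0.15. Leaving out libraries there gave Tie1 -3.91 to 3.05, Esam -0.22 to 0.47, Emcn -1.54 to 0.53, Egfl7 -0.23 to 0.04, Cdh5 -0.70 to 1, Kdr -0.70 to 1.78, Cldn5 -0.14 to 0.64 and Flt1 -0.44 to 0.82. For the interaction Emcn was 0.05 with the replicate block, 0.12 with GC offsets, 0.98 without the Y-linked pair and 0.44 without the pair with most reads outside genes, and Cdh5 was 0.04 and Tie1 0.34 without the Y-linked pair. Leaving out libraries gave Emcn -1.04 to 1.03, Egfl7 -0.06 to 0.57, Kdr -1.26 to 1.22, Cdh5 -0.66 to 1.03 and Tie1 -4.48 to 2.47. The mean of Cldn5 in old wild type was 1.69 CPM with library size alone. The cause of these shifts was not tested. A group left with 1 library was assumed to vary like the others. With 111 reads for Tie1 and 125 for Emcn over 12 libraries, depth limits what can be seen of both.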
